A study of Drosophila melanogaster with 18 samples.

Results

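Among the transposons of Drosophila melanogaster, copia, Dm88 and the element named '1731' are LTR retrotransposons of the copia (Ty1/copia) superfamily. They were taken by their exact names from the FlyBase-identified rows of both deposited tables, as FBgn0000349 (copia), FBgn0062343 (Dm88) and 1731's entry FBgn0000007. All 3 were found in both tables, out of 119 transposon families without the prefix of another species and 18912 features in all. Each value belongs to a family and not to 1 of its copies, so no single genomic position applies. A feature here is a gene with its transcripts summed, a transcript with no matching gene symbol, or a transposon family.

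An element of this superfamily is transcribed by RNA polymerase II between its long terminal repeats, packs its RNA into virus-like particles made of its own Gag protein, and returns to the genome by reverse transcription and integration. Its polymerase gene places the integrase before the reverse transcriptase, the reverse of the order in gypsy elements, and it carries no envelope gene. In follicle cells of the fly ovary, the nuclear Argonaute protein Piwi and its piRNAs repress transcription of retrotransposons, foremost those of the gypsy superfamily. Maelstrom (Mael) acts in that repression. Brahma (Brm), an ATPase, drives the chromatin remodelling done by the fly's SWI/SNF complexes. Polybromo and Osa are subunits that each belong to 1 form of the complex, PBAP and BAP.

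All groups were of OSCs, a single cultured line of ovarian somatic cells, 2 days after RNA interference. RNA was measured after knockdown of piwi, mael or brm and after knockdown of EGFP, a sequence foreign to the fly that served as the control. DNA bound by Brm, Polybromo or Osa was measured by ChIP-seq after knockdown of piwi and after knockdown of EGFP. The ChIPs of Brm and of Polybromo shared 1 input library per condition, and the ChIP of Osa had its own. With 1 library per group there is no replicate check of any difference, and intervals cover counting error only. The 4 ovary libraries, from WT and MaelM391Df flies, were not analysed here. The study asked which transposons Piwi silences by way of Mael and which of them depend on Brm.

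The RNA libraries held 8965485 (Piwi), 9498401 (Mael), 4865534 (Brm) and 8983374 (EGFP) reads. ChIP and input libraries held between 475226 and 2779826 reads. The targeted genes had their lowest RNA where they were knocked down. piwi had 10.95 RPKM after piwi knockdown against 81.5 RPKM in the control. mael had 4.20 RPKM after its knockdown against 14.5 RPKM in the control, and brm had 0.54 against 6.66 RPKM. After brm knockdown piwi itself had 21.3 RPKM. Follicle lineage markers (tj, Fas3, zfh1, eya and piwi) summed to between 87.2 and 198 RPKM per library, lowest after brm knockdown. The 5 germline markers found (vas, aub, AGO3, bam and osk) summed to between 1.20 and 2.71 RPKM, with osk at 0 in the Brm and EGFP libraries and vas and aub at 0 in the Piwi library. Neuronal markers (elav, nSyb and brp) summed to between 1.32 and 2.84 RPKM, with nSyb at 0 in the 3 knockdowns of fly genes and brp at 0 after brm knockdown. Any part of these marker levels in the results was not tested. In bulk RNA, fewer cells of a type and less RNA per cell cannot be told apart.

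The 3 families differed in RNA level by orders of magnitude in every library. copia, the family that gives the superfamily its name, had 12904 RPKM after piwi knockdown, 12254 after mael knockdown, 35243 after brm knockdown and 15484 in the EGFP control. It was the most abundant transposon RNA in all 4 libraries, with 1 high library, that of the brm knockdown, and 3 libraries within 1.26-fold of each other. 1731's RNA had 123 RPKM after piwi knockdown, 123 after mael knockdown, 117 after brm knockdown and 141 in the EGFP control. Its 3 knockdown values lay close together and under the control. Dm88 had 2.94 RPKM after piwi knockdown, 1.64 after mael knockdown, 2.07 after brm knockdown and 1.20 in the EGFP control, from 120, 71, 46 and 49 reads. Its counting intervals overlapped except between the piwi knockdown (2.24 to 3.78 RPKM) and the control (0.79 to 1.80 RPKM).

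**Figure D1:**
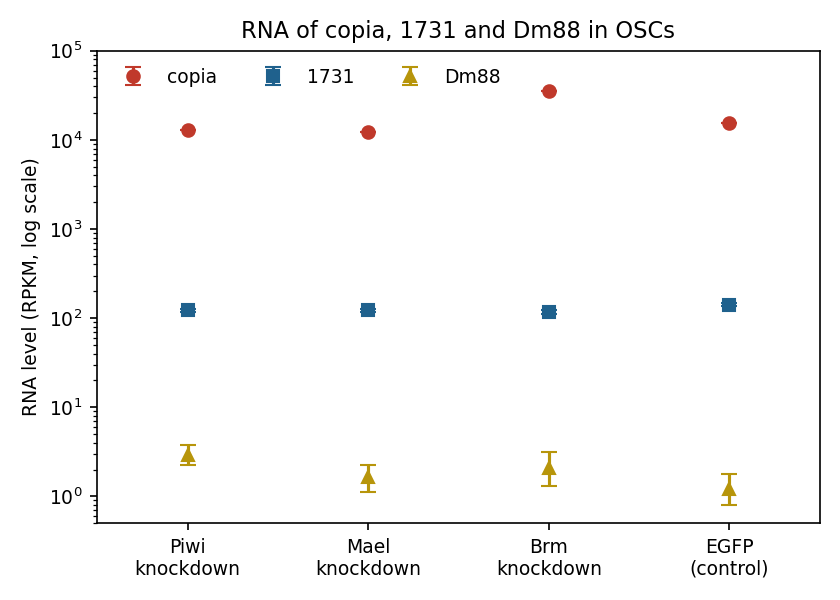
RNA level in RPKM (log axis) of 1731's family, copia and Dm88 in the 4 RNA libraries of OSCs, 1 library each. Bars are 95% Clopper-Pearson intervals of counting error, smaller than the symbol for copia. copia stands highest after brm knockdown (35243 RPKM), 1731's values are nearly level, and Dm88 stays between 1.20 and 2.94 RPKM.

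copia filled a large part of each RNA library. Its reads made up 6.64% of the library after piwi knockdown, 6.30% after mael knockdown, 18.1% after brm knockdown and 7.96% in the control. After brm knockdown copia was the feature with the highest RPKM of all, against rank 3 in the control. The next shares cover transposon families without the prefix of another species whose length was recovered from the values. Of their reads, copia held 51.1% after piwi knockdown, 58.1% after mael knockdown, 91.3% after brm knockdown and 67.1% in the control. The remaining families of this set together took 6.35% of the library after piwi knockdown, 4.54% after mael knockdown, 1.73% after brm knockdown and 3.90% in the control. The whole set took 19.9% of the brm knockdown library and 11.9% of the control, so that copia held a larger share and the others together a smaller one. The families gypsy12 and BS3 had no recovered length, so their reads are missing from these shares. RNA of gypsy12 was at 111 RPKM after brm knockdown and 128 RPKM in the control.

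Set against their DNA, the 3 families stood far apart. In the control input of the Brm and Polybromo ChIPs, copia had 1011 RPKM, Dm88 had 112 RPKM and 1731's DNA had 163 RPKM. These values were 202, 22.3 and 32.5 times the median of genes with 1 annotated transcript (5.01 RPKM). RNA in EGFP cells over this input was 15.3 for copia, the highest of 111 families with at least 10 RPKM of input. 1731's value was 0.87, rank 5, and that of Dm88 was 0.011, rank 69, beside a median family at 0.014. copia thus held 6.22 times 1731's DNA signal and 110 times its RNA. 1731's DNA signal was 1.45 times that of Dm88, and its RNA 118 times. Against the control input of Osa the ratios were 30.8 for copia, rank 1 of 96 families, and 0.034 for Dm88, rank 51, while 1731's ratio was 2.29, rank 2.

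**Figure D2:**
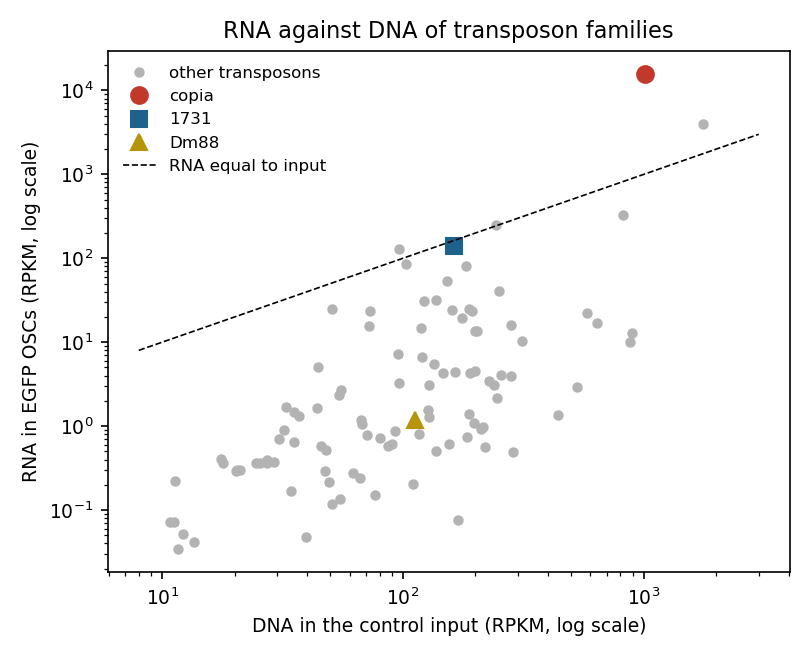
RNA in EGFP OSCs against DNA in the control input of the Brm and Polybromo ChIPs, both in RPKM on log axes, 1 library each, for transposon families with at least 10 RPKM of input. 103 families are drawn and 8 more had RNA at 0. copia lies farthest above the line of equal values, 1731's point close to it and Dm88 well below it, as the median family does.

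After piwi knockdown copia's and 1731's RNA stood below their control levels, by less than the 2-fold used as the rule of size. Ratios are log2 of RPKM with 1 RPKM added, and a feature entered when the mean of both libraries reached 5 RPKM. copia was at -0.26 (12904 RPKM after piwi knockdown, 15484 in the control) and 1731's ratio was -0.20 (123 and 141 RPKM). Neither passed the rule, which 1.25% of 5378 features passed upward and 0.465% downward. Among the 33 transposon families over the floor, 11 (33.3%) passed upward and 0 downward. Of these families 3 had a lower ratio than copia and 4 a ratio under 1731's, while the median family stood at 0.31. Relative to the median feature (-0.04), copia was at -0.22 and 1731's ratio at -0.16.

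Elements of other superfamilies, named for comparison, had the following values. In the piwi knockdown mdg1, a gypsy-superfamily element, had 513 RPKM after piwi knockdown and 16.0 RPKM in the control (4.92). gypsy was at 1.82 and Quasimodo at 4.47. mdg1 and Quasimodo had the highest ratios of the 33 transposon families over the floor, whose median was 0.31. springer, an element named after its values were seen, was at -0.08. Among BEL-Pao elements, the other LTR superfamily outside gypsy, diver (-0.60) and 3S18 (-0.37) were below the control, and roo was at 0.72. These differences are between single libraries and were not tested.

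Dm88 lay under the floor, and its log2 ratio with 1 RPKM added was 0.84 after piwi knockdown. Without the addition its ratio of RPKM was 2.45, with a counting interval of 1.49 to 4.0. This rests on 120 reads after piwi knockdown and 49 in the control, in libraries of nearly equal depth. At 2.94 RPKM, its RNA over the Brm and Polybromo input after piwi knockdown was 0.025, rank 51 of 111 families. The median family of that comparison was at 0.023.

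After mael knockdown copia's and 1731's RNA stood within 2-fold of the control. copia was at -0.34 (12254 RPKM after mael knockdown, 15484 in the control) and 1731's ratio was -0.20 (123 and 141 RPKM). Relative to the median feature (-0.12) they were at -0.22 and -0.08. Neither passed the rule, which 0.414% of 5311 features passed upward and 0.433% downward (0.715% and 0.282% relative to the median). Of 33 transposon families, 4 (12.1%) passed upward and 0 downward. Dm88 had a ratio of RPKM of 1.37, and its interval (0.77 to 2.31) included equality. The comparisons with EGFP share that 1 control library, so a value particular to it would enter each of them.

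Set directly against the piwi knockdown, the mael knockdown had 12254 against 12904 RPKM of copia and 122.8 against 123.2 RPKM of 1731's RNA. These are log2 ratios of -0.07 and -0.005, beside -0.09 for the median of 5318 features, of which 0.207% passed the rule upward and 1.18% downward. Dm88 had 1.64 RPKM after mael knockdown and 2.94 after piwi knockdown, a ratio of RPKM of 0.56 (interval 0.35 to 0.85). In this comparison gypsy was at -0.96, Quasimodo at -1.39 and mdg1 at -0.34. Among the BEL-Pao elements roo was at -0.87, diver at 0.27 and 3S18 at 0.008. The median of 33 transposon families was -0.27.

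After brm knockdown copia was the 1 transposon family past 2-fold upward in the values as deposited. It rose to 35243 RPKM after brm knockdown, against 15484 RPKM in the control, a log2 ratio of 1.19 (interval 1.18 to 1.19). Relative to the median feature of this comparison (-0.34) the ratio was 1.53. Upward, 1.63% of 5078 features passed the rule as deposited and 3.54% relative to the median. Downward, 10.8% passed as deposited and 4.14% relative to the median. Of the 29 transposon families over the floor, copia alone (3.45%) passed upward as deposited and 10 (34.5%) passed downward. Relative to the median, 2 (6.9%) passed upward, copia and the DNA transposon FB, and 4 (13.8%) downward. 28 of these 29 had a lower ratio than copia, and 54 of all 5078 features had a higher one. With the reads of copia left out of every library's total, its ratio was 1.36.

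1731's RNA did not pass the rule after brm knockdown. It had 117 RPKM after brm knockdown and 141 RPKM in the control, a log2 ratio of -0.27, which turned to 0.07 relative to the median feature and stood at -0.10 with copia's reads left out of the totals. Dm88 had 46 reads after brm knockdown and 49 in the control, a ratio of 1.73 once scaled to depth, with an interval of 0.92 to 3.12 that included equality. copia's RNA level was 301 times 1731's level after brm knockdown and 110 times in the control.

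Several elements of other LTR superfamilies fell after brm knockdown as deposited. gypsy had 70.8 RPKM after brm knockdown against 330 RPKM in the control (-2.21, or -1.87 relative to the median), and mdg1 4.84 against 16.0 RPKM (-1.54, or -1.20 relative to the median). 3S18 had 20.9 RPKM after brm knockdown against 53.7 RPKM in the control (-1.32, or -0.98 relative to the median, where it no longer passed). diver was at -0.96, roo at 0.29 and Quasimodo at 0.15. springer, the second most abundant transposon RNA in the control and named here after its values were seen, had 1742 RPKM after brm knockdown against 4016 RPKM in the control (-1.20, or -0.86 relative to the median).

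**Figure D3:**
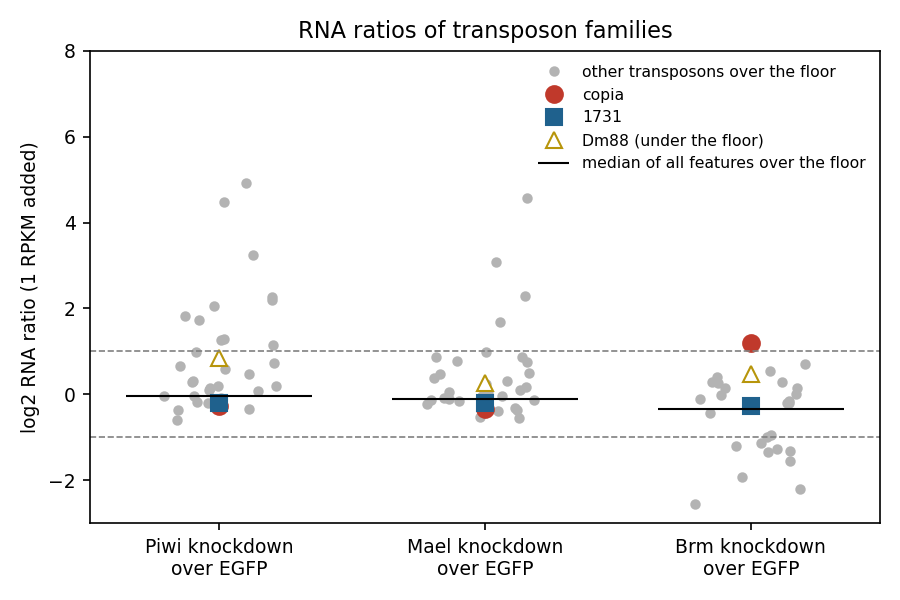
Log2 RNA ratio (1 RPKM added) of each knockdown over EGFP for every transposon family over the floor of 5 RPKM, 1 library per group. Dashed lines mark 2-fold, black lines the median of all features, and Dm88 is drawn open because it lies under the floor. copia stands highest of the families after brm knockdown (1.19) and below the median feature after piwi (-0.26) and mael (-0.34) knockdown.

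Genes of pathways known to act on retrotransposons were read in the same libraries. The siRNA pathway, in which Dcr-2 cuts double-stranded RNA and AGO2 carries the products, is the other small RNA defence of fly somatic cells. After piwi and mael knockdown 0 of its 4 tested genes passed the rule, with medians of -0.06 and -0.23 beside -0.04 and -0.12 for all features. After brm knockdown 1 of 3 tested genes passed downward, Dcr-2, with 9.84 RPKM against 24.4 RPKM in the control (-1.23, or -0.89 relative to the median feature, where it no longer passed). Of all 5078 features 10.8% passed downward as deposited and 4.14% relative to the median. The list's median there was -0.46, beside -0.34 for all features. AGO2 had 17.2 RPKM after brm knockdown against 20.8 RPKM in the control (-0.25), and r2d2, the partner of Dcr-2, 14.8 against 20.7 RPKM (-0.46). loqs, which encodes a double-stranded RNA binding partner of Dicer proteins, had 3.46 against 3.81 RPKM, and Hen1, the methyltransferase of small RNA ends, 2.35 against 6.16 RPKM. Both lay under the floor.

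Of 10 genes of nuclear piRNA silencing, 8 to 9 were tested in each comparison. After piwi and mael knockdown the 1 gene passing downward was the target itself, beside 0.465% and 0.433% of all features. The list's medians were -0.12 and -0.11, beside -0.04 and -0.12 for all features. After brm knockdown it was piwi (-1.89, or -1.55 relative to the median feature), the lowest of the list, where 10.8% of all features passed downward as deposited. The list's median was -0.49, beside -0.34 for all features, and its highest member was mael (0.11). Genes named as modifiers of white-apricot, an eye colour allele made by a copia insertion, did not pass the rule in any comparison (2 tested after piwi and brm knockdown, 3 after mael knockdown). su(w[a]), a splicing regulator, had 6.40 RPKM after brm knockdown against 13.4 RPKM in the control (-0.96). Doa, a LAMMER kinase, had 8.39 against 11.8 RPKM (-0.45). mle, an RNA helicase of dosage compensation, had 4.68 against 4.94 RPKM.

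The features whose RNA moved most like copia were sought over all 4 libraries, by the Euclidean distance between the 3 log2 ratios to EGFP. Among 5218 features with a mean of at least 5 RPKM, CG9338 was nearest (distance 0.085), with 433 RPKM after piwi knockdown, 419 after mael knockdown, 1117 after brm knockdown and 518 in the control. Next came Spn27A, a serpin (0.16), CG30195 (0.25), cbt, a zinc finger transcription factor (0.26), and Spn42De, another serpin (0.34). Of the 5218 features only 30 were transposon families, copia among them, so their absence from the nearest features is not a result about copia. invader1 was the closest transposon at 0.72, followed by FB (1.01) and Doc2-element (1.02). 1731's nearest features were closer: Fbxo42 (0.031), the ubiquitin ligase gene Ube3a (0.038), Opa1, a GTPase of mitochondrial fusion (0.046), CG3719 (0.053) and CG3511 (0.055). 1731's closest transposons were HMS-Beagle (0.29), F-element (0.38) and Doc (0.45). Each distance rests on 4 libraries.

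In ChIP of Brm, set against its own input, none of the 3 families stood above the median feature in control cells. Enrichment is the log2 ratio of a ChIP to its input, shifted so that the median of 9456 features with sufficient input lies at 0. A change is the difference of these values between conditions, shifted once more so that its own median lies at 0. copia had 865 RPKM in the ChIP and 995 in the input after piwi knockdown, and 806 in the ChIP and 1011 in the input of control cells. Its enrichment was 0.04 after piwi knockdown and -0.19 in control cells, a change of 0.24 (counting interval 0.17 to 0.31). 1731's DNA had 116 RPKM in the ChIP and 151 in the input after piwi knockdown, and 136 and 163 RPKM in control cells. Its enrichment was -0.14 after piwi knockdown and -0.12 in control cells (change -0.0077, interval -0.19 to 0.18). Dm88 had 77.2 RPKM in the ChIP and 116 in the input after piwi knockdown, and 78.9 and 112 RPKM in control cells. Its enrichment was -0.34 after piwi knockdown and -0.36 in control cells (change 0.02, interval -0.20 to 0.25). The median of 116 transposon families was -0.34 in control cells. There 89 families had a lower enrichment than copia, 98 a lower one than 1731's and 51 a lower one than Dm88.

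None of the 3 families passed 2-fold, which 7.04% of features passed upward and 8.8% downward, with 0 of 116 transposon families in either direction. Of these 116 families, 85 had a lower change than copia, and the median change was 0.05. Among the elements named for comparison, gypsy (0.77), Quasimodo (0.76) and mdg1 (0.31) had higher changes than copia. 3S18 (0.006), roo (-0.06) and diver (-0.06) had lower ones. Against the Osa input of the same condition, the change of copia was -0.06, 1731's was -0.49 and that of Dm88 was -1.11. Dm88 passed 2-fold downward there, as 24.9% of all features did, while 25.2% passed upward. Enrichment in control cells against that input was 1.41 (copia), 1.84 (Dm88) and, as 1731's value, 1.84.

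The ChIP of Polybromo was set against the same inputs as that of Brm. copia had 880 RPKM in the ChIP after piwi knockdown and 867 in control cells, enrichments of 0.03 and -0.13 (change 0.13, interval 0.06 to 0.21). 1731's DNA had 123 RPKM in the ChIP after piwi knockdown and 137 in control cells, enrichments of -0.08 and -0.15 (change 0.04, interval -0.17 to 0.25). Dm88 had 62.4 RPKM in the ChIP after piwi knockdown and 90.6 in control cells, enrichments of -0.67 and -0.20 (change -0.49, interval -0.76 to -0.23). It was the lowest of the 3, and 8 of 116 transposon families had a lower change. None of the 3 passed 2-fold, which 9.54% of features passed upward and 9.91% downward, with 4 (3.45%) and 1 (0.862%) of the transposon families. Quasimodo had a change of 3.22, gypsy of 1.11 and mdg1 of 0.06. diver was at 0.59, roo at -0.22 and 3S18 at -0.22, and the median transposon family was at -0.16. Against the Osa input, the change of copia was -0.23, 1731's was -0.50 and that of Dm88 was -1.69. Dm88 passed 2-fold downward there, as 24.8% of all features did, while 25.7% passed upward. Enrichment in control cells against that input was 1.47 (copia), 1.99 (Dm88) and, as 1731's value, 1.81.

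In ChIP of Osa, set against its own input, all 3 families stood above the median feature in control cells. copia had 1245 RPKM in the ChIP and 504 in the input after piwi knockdown, and 961 in the ChIP and 502 in the input of control cells. Its enrichment was 1.84 after piwi knockdown and 1.91 in control cells, where 94 of 110 transposon families had a lower one. 1731's DNA had 78.8 RPKM in the ChIP and 66.6 in the input after piwi knockdown, and 85.2 and 61.9 RPKM in control cells. Its enrichment was 0.77 after piwi knockdown and 1.43 in control cells. Dm88 had 37.4 RPKM in the ChIP and 68.8 in the input after piwi knockdown, and 39.7 and 35.6 RPKM in control cells. Its enrichment was -0.32 after piwi knockdown and 1.13 in control cells. Upward 2-fold was reached by 19.6% of all features after piwi knockdown and 20.5% in control cells, and downward by 22.5% and 24.3%. The median transposon family stood at 0.36 after piwi knockdown and 0.94 in control cells.

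These Osa values depended on the input. Against the input of the Brm and Polybromo ChIPs, enrichment in control cells was 0.54 for copia and -0.84 for Dm88, and 1731's value was -0.30. Both Osa inputs held less of the families than the Brm and Polybromo inputs did. For copia the ratio of the Osa input to the other input was 0.51 after piwi knockdown and 0.50 in control cells, and the median family lay at log2 values of -0.83 and -1.16. The part of the input libraries in the enrichments was not tested.

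The change in Osa enrichment on piwi knockdown was -0.01 for copia (interval -0.12 to 0.10) and -1.38 for Dm88 (-1.80 to -0.97), and 1731's change was -0.59 (-0.93 to -0.25). The median change of 110 transposon families was -0.46. Of these families 84 had a lower change than copia, 43 a lower one than 1731's and 7 a lower one than Dm88. Dm88 passed 2-fold downward, as 26.7% of all features and 19 of 110 transposon families (17.3%) did, while 29.1% of features and 7 of these families (6.36%) passed upward. With background shares this large, the passage of Dm88 is not a result about that family. In the ChIP libraries themselves Dm88 was nearly level (37.4 RPKM after piwi knockdown, 39.7 in control cells). In the Osa inputs it had 68.8 RPKM after piwi knockdown and 35.6 in control cells, from 149 and 150 reads in libraries of 475226 and 925187 reads. In the Brm and Polybromo inputs it had 116 RPKM after piwi knockdown and 112 in control cells, and against those inputs its Osa change was -0.27. For copia the change as given, without setting the median feature to 0, was 0.37. Of the Osa ChIP reads on transposon families with a recovered length, copia held 4.91% after piwi knockdown and 4.95% in control cells.

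**Figure D4:**
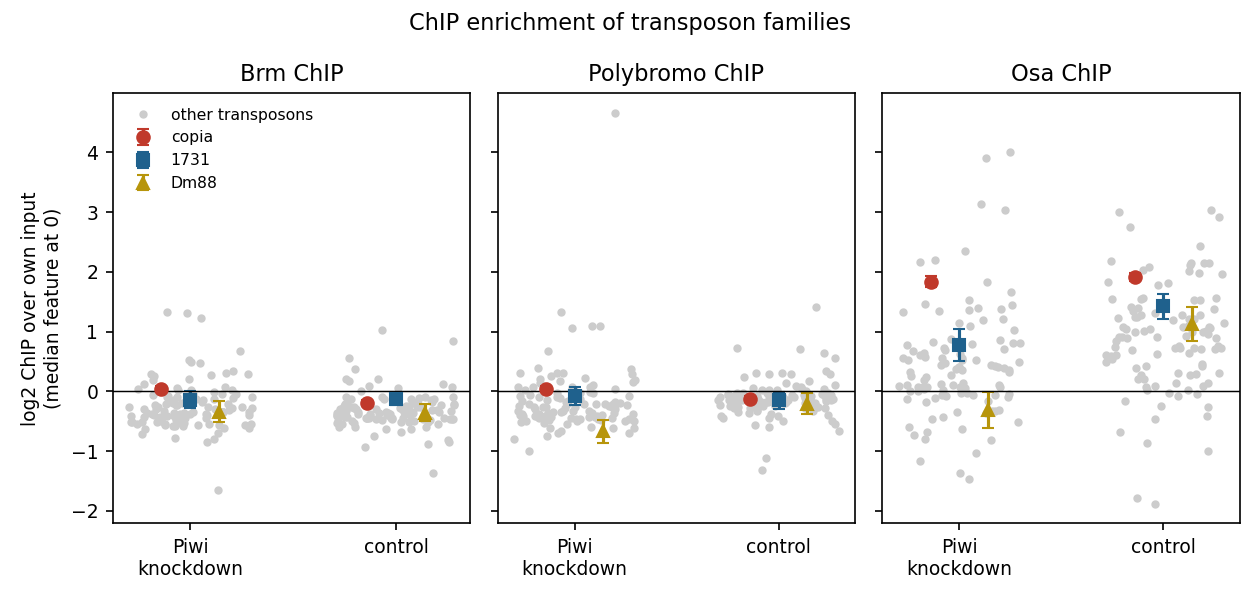
Log2 ChIP over own input, with the median feature at 0, for Brm, Polybromo and Osa in piwi knockdown and control OSCs, 1 library each. Bars are 95% normal intervals of counting error and grey points are other transposon families. 1731's points and those of copia lie near 0 for Brm and Polybromo, and for Osa copia stays high (1.84 after piwi knockdown, 1.91 in control cells) while Dm88 is at -0.32 after piwi knockdown and 1.13 in control cells.

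**Figure D5:**
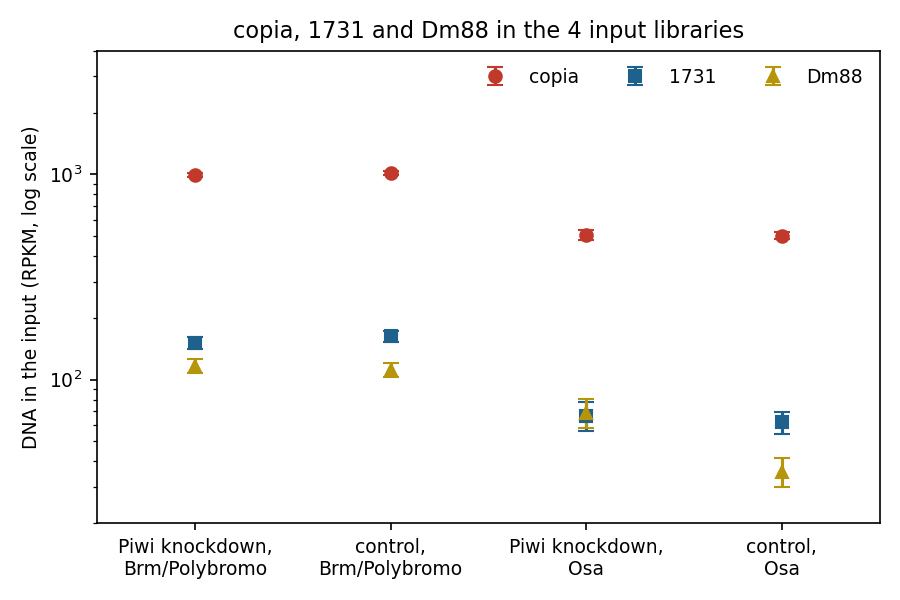
DNA level in RPKM (log axis) of 1731's family, copia and Dm88 in the 4 input libraries, with 95% Clopper-Pearson intervals of counting error. All 3 families are lower in the Osa inputs, and Dm88 had 68.8 RPKM after piwi knockdown and 35.6 RPKM in control cells in the Osa inputs, and 116 and 112 RPKM in the Brm and Polybromo inputs.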

How the data were processed

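RNA-seq of 4 and ChIP-seq of 10 OSC libraries were analysed. The deposited values are RPKM, in which the authors divided reads by feature length and by library size. The submitters' processing notes name Bowtie2 2.2.4 and the dm6 build. How reads were counted, and to which copy a read matching several was given, is not stated in the labels or file headers. 4 further columns of the RNA table matched no listed sample and were not used.

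Library totals and the lengths of families were found as the whole numbers that turn RPKM into whole reads. This held within 0.01 read for 100% of the values above 0 in transposon rows whose length was found. Rows without a length do not enter that share. No length was found for gypsy12 and BS3, so their reads do not enter the shares of transposon reads. The lengths were 5143 (copia) and 4558 (Dm88) bases, and 1731's was 4648 bases. Of 35329 transcript identifiers, 32988 matched a gene symbol in the RefSeq table of Release 6, and transcripts of a gene were summed. The 52 transposon rows named for other species were left out.

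RNA intervals are 95% Clopper-Pearson intervals that count 2 reads as 1 fragment. ChIP ratios had the 5th percentile of positive input values added, and features entered when mean input reached the median. PCR reads without molecular identifiers are not independent molecules. No p-value is given, because each group held 1 library. Python 3.11.15, pandas 2.3.3 and scipy 1.17.1 were used.

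The members and lists were chosen with earlier results of these data known. Named are the 3 families, the targeted genes, 6 elements for comparison, the 5 features and 3 transposons nearest to each family over the floor, and the genes of the 3 lists. The alternatives were another pseudocount, floor, scaling, input and input minimum.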

Additional observations from a re-analysis of the deposited data

How the results depend on the processing

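No paired analysis was possible because each group held 1 library. For copia, log2 RNA ratios relative to the median feature were -0.22 (Piwi), -0.22 (Mael) and 1.53 (Brm), and with copia's reads left out of the totals -0.28, -0.36 and 1.36. 1731's ratios were -0.082 (Mael) and 0.072 (Brm) relative to the median, and -0.10 (Brm) without copia's reads. Dm88's RNA ratios moved by less than their counting intervals under each of these settings. With a floor of 1 RPKM, features past 2-fold numbered 144 higher and 99 lower (Piwi), 72 and 98 (Mael), and 248 and 973 (Brm), against 67 and 25, 22 and 23, and 83 and 549 with the floor of 5 RPKM. Relative to the median they numbered 38 and 15 (Mael), and 180 and 210 (Brm), and with 0.1 RPKM added 43 were lower (Mael). Changes in ChIP on piwi knockdown against the other input were -0.065 (copia) and -1.11 (Dm88) for Brm, -0.23 and -1.69 for Polybromo, and 0.26 and -0.27 for Osa, and 1731's were -0.49, -0.50 and -0.14. Not centred, copia's changes were 0.13 (Brm), 0.044 (Polybromo) and 0.37 (Osa), and 1731's Osa change was -0.21. With 0.1 RPKM added, the Osa change of copia was -0.14. Osa enrichment in control cells turned to -0.84 (Dm88) against the other input, and 1731's to -0.30. With input at or above the 75th percentile, features past 2-fold numbered 298 higher and 401 lower (Brm), 423 and 470 (Polybromo), and 1335 and 1231 (Osa), against 666 and 832, 902 and 937, and 2755 and 2528 at the median. The stricter minimum tests fewer features, and the cause of the other shifts was not tested. Depth limits Dm88 in RNA, with 46 to 120 reads, and in the Osa inputs, with 149 and 150 reads after piwi knockdown and in control cells, where 1731's reads were 147 and 266.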

Other observations

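The level of copia over 1731's is given for each kind of library, and 1731's level over that of Dm88 for RNA and inputs. The ratio of copia's level to 1731's was, in DNA of the 4 inputs, between 6.22 and 8.12. In the Brm and Polybromo ChIPs it was 7.46 and 7.16 after piwi knockdown, and 5.93 and 6.32 in control cells. In the Osa ChIP it was 15.8 after piwi knockdown and 11.3 in control cells. In RNA it was 105 after piwi knockdown, 99.8 after mael knockdown, 301 after brm knockdown and 110 in the EGFP control. 1731's RNA level over that of Dm88 was 41.9, 74.9, 56.5 and 118 in the same libraries. In the Brm and Polybromo inputs 1731's DNA over that of Dm88 was 1.30 after piwi knockdown and 1.45 in control cells. In the Osa inputs it was 0.97 after piwi knockdown and 1.74 in control cells. These are values of single libraries.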
